A study of Arabidopsis thaliana with 12 samples.

Results

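VSP1 (AT5G24780), VSP2 (AT5G24770) and LOX2 (AT3G45140) are 3 jasmonate-linked genes of Arabidopsis thaliana, chosen by locus identifier out of 37899 annotated genes, with earlier results on these seedlings known. They were read in 4 tables that the authors made from 12 RNA libraries of whole seedlings, with 4 libraries each of wild type (WT, titled Col), picln-1 and prmt5-5. All seedlings were kept at 22 °C for 10 days with 12 h of light and 12 h of darkness, and the labels give the light regime as lasting 9 days. picln-1 is a mutant of pICln, a chaperone of spliceosome assembly, and prmt5-5 is a mutant of PRMT5, an enzyme that methylates arginines, also in spliceosomal proteins. Each factor is represented by 1 allele, so the effect of a mutation and that of any other difference of its line cannot be told apart. The design text mentions cold, but the label of every library gives the light regime alone.

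Jasmonates are lipid hormones of wounding, insect attack and flower fertility. Lipoxygenases such as LOX2 oxidise linolenic acid in the chloroplast, allene oxide synthase (AOS) and allene oxide cyclases (AOC) turn the product into a ring, and the last steps take place in peroxisomes. The isoleucine conjugate brings the receptor COI1 to the JAZ repressors, whose breakdown frees MYC2 and related transcription factors. VSP1 and VSP2 encode vacuolar proteins of the acid phosphatase type that store nitrogen in leaves and flowers, and their transcripts are widely used as readouts of the MYC branch of the response.

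VSP1 and VSP2 lie side by side on the minus strand of chromosome 5, VSP1 at 8507590 to 8509201 and VSP2 at 8500468 to 8502224 (TAIR10.1), with 5365 bases and the pseudogene AT5G24775 between them. LOX2 lies on the plus strand of chromosome 3 at 16525245 to 16529352. No annotated gene overlaps any of the 3. The coding sequences of VSP1 and VSP2 are 813 and 798 bases long and identical at 719 of 795 aligned bases (90.4%). Their first bases are shown because they hold a stretch by which reads of the pair can be told apart; capitals mark bases that differ or are present in 1 gene alone.
VSP1 coding start: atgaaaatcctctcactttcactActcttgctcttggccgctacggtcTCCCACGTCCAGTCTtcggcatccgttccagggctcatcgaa
VSP2 coding start: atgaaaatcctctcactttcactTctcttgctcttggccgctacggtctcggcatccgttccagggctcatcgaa
VSP1 carries 15 bases there that VSP2 lacks. The longest stretch the coding sequences share is 54 bases, from base 243 of VSP1 and base 228 of VSP2, and is shown because reads within it fit both genes.
Shared by VSP1 and VSP2: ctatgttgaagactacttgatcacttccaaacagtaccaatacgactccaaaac
Of all 50-base windows of the VSP1 transcript, 0.394% also occur unchanged in the VSP2 transcript and 15.1% do so with up to 2 mismatches. The sources used here do not give the read length, so how the counting divided reads between the pair was not tested.

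**Figure D1:**
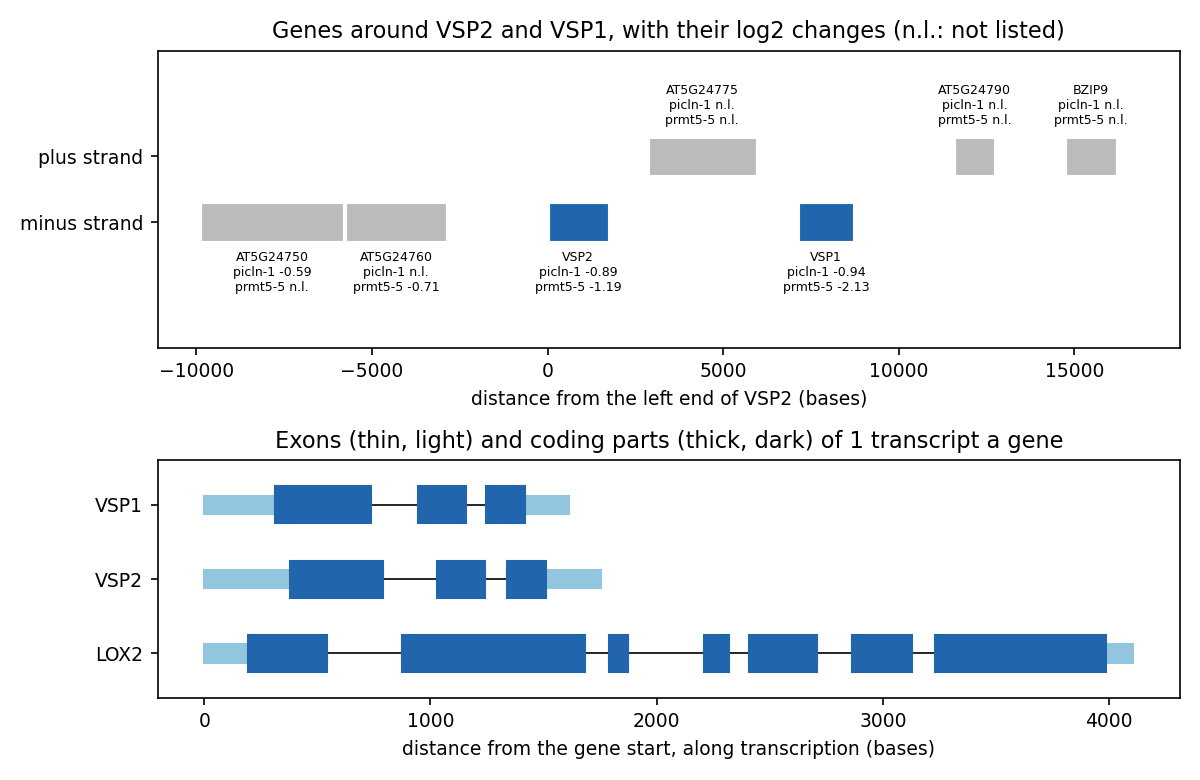
Top, genes on both strands around VSP2 and VSP1, by distance in bases from the left end of VSP2, with each gene's log2 change in the authors' tables (n.l., not listed); bottom, exons and coding parts of 1 transcript of each gene by distance in bases from the gene start. VSP1 and VSP2 share the same order of 3 exons, and LOX2 has 7.

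The authors' tables list only features that passed limits: genes with an adjusted p below 0.05, where the smallest change listed is 0.58 on the log2 scale, and gene parts (bins) with an adjusted p below 0.15. They hold no value for a single library and no expression level, so the spread between the 4 libraries of a genotype cannot be shown and depth is unknown. Nothing in the labels says that these libraries came from separate cultures. The targeted genes were checked against the labels. In the authors' deposited table pICln (AT5G62290) had a log2 change of -3.48 in picln-1, and an intron of PRMT5 (AT4G31120) was retained by 81.0% of junction reads of prmt5-5 and 0% of those of WT. PRMT5 was not listed for expression in prmt5-5.

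The comparison of the mutants with WT asks how far each mutant line shifts these transcripts. VSP1, VSP2 and LOX2 were all lower in prmt5-5, whereas in picln-1 VSP1 and VSP2 were lower and LOX2 was not listed. In whole seedlings, fewer cells that express a gene and less RNA per cell cannot be told apart. Of the genes tested, 0.996% were listed as lower in picln-1 (164 of 16473) and 4.15% in prmt5-5 (695 of 16747). The 3 genes were singled out with these results known, so their share is a description.

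The authors' deposited table gives VSP1 a log2 change of -0.94 in picln-1 (adjusted p = 0.000250), that is, 1.92-fold lower and 52.1% of the WT level. For prmt5-5 the authors' deposited table has VSP1 at -2.13 (adjusted p = 1.25e-19), that is, 4.38-fold lower and 22.8% of the WT level. An approximate standard error, obtained by dividing each change by the normal quantile that the authors' p corresponds to, was 0.21 in picln-1 and 0.23 in prmt5-5. The approximate 95% intervals, -1.36 to -0.53 and -2.57 to -1.69, do not overlap. By size, VSP1 ranked 51st among the 164 falls of picln-1 and 21st among the 695 falls of prmt5-5.

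VSP2 has a log2 change of -0.89 for picln-1 in the authors' deposited table (adjusted p = 9.03e-05), or 1.85-fold lower. Its change for prmt5-5 in the authors' deposited table is -1.19 (adjusted p = 9.57e-09), or 2.27-fold lower. Its WT level was thus reduced to 53.9% and to 44.0%. The approximate 95% intervals, -1.26 to -0.52 and -1.56 to -0.81, overlap over most of their length. VSP2 ranked 62nd among the falls of picln-1 and 99th among those of prmt5-5.

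In prmt5-5 the authors' deposited table lists LOX2 at -1.10 on the log2 scale (adjusted p = 4.13e-11; approximate 95% interval -1.41 to -0.80), or 2.15-fold lower. It ranked 136th among the 695 falls by size. All 3 changes in prmt5-5 were larger in size than the median listed fall there, a log2 change of -0.78 or 1.71-fold. The median listed fall in picln-1 was similar, at -0.80 or 1.74-fold. LOX2 had no row for picln-1, which leaves its change there unmeasured: it was smaller than the limits, not significant, or not tested. With an error like that in prmt5-5 (0.16), a change of 0.43 would already reach the largest p listed in picln-1, 0.00575, so the size limit of 0.58 would be the one to bind.

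**Figure D2:**
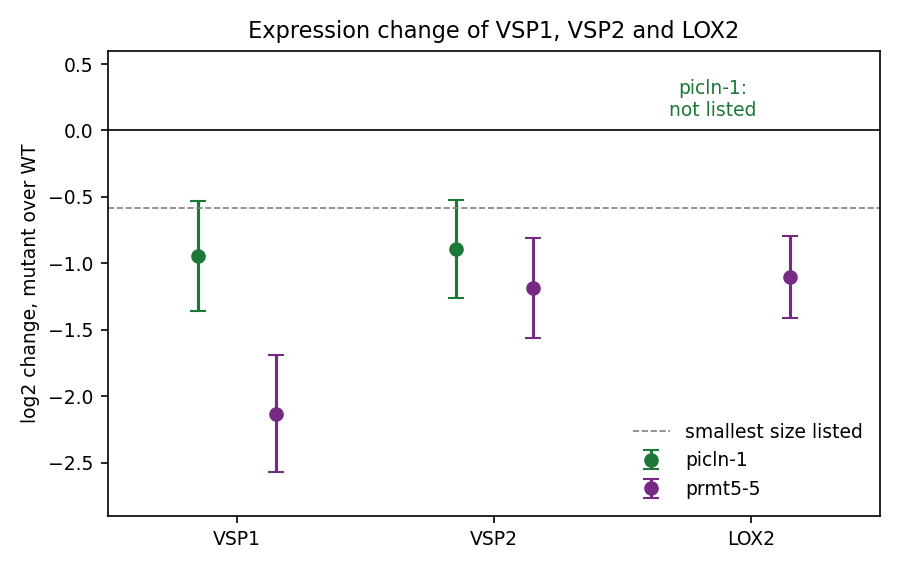
Log2 change of VSP1, VSP2 and LOX2 in picln-1 (green) and prmt5-5 (purple) against WT; points are the authors' values, bars are approximate 95% intervals derived from the authors' p, and the dashed line is the smallest size listed, 0.58. The VSP1 points stand at -0.94 and -2.13 with bars that do not meet, and the VSP2 points at -0.89 and -1.19 with bars that overlap.

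The size of the change was then compared between the mutants. For VSP1 the change in prmt5-5 was lower than that in picln-1 by a difference of -1.19 on the log2 scale (approximate SE 0.22, 95% interval -1.62 to -0.76), a further 2.28-fold. For VSP2 the difference was -0.30 (approximate SE 0.19, 95% interval -0.67 to 0.08), so that it was within its error. The lower end of that interval is a further 1.59-fold fall, and equality of the mutants is therefore not shown. That reading rests on how an error is taken from p. With a t distribution of 6 degrees of freedom in place of the normal, the interval was -0.41 to -0.18. The t setting gave VSP2 errors of 0.052 in picln-1 and 0.018 in prmt5-5, and VSP1 errors of 0.067 and 0.00040. Errors so unequal are hard to credit for groups of equal size that share WT, so the t interval carries little weight. The shared WT libraries were taken into account by a correlation of 0.5 between the 2 changes, and no p is given because the genes were chosen with the results known. For LOX2, a change in picln-1 between -0.58 and 0.58 would put the difference between -0.52 and -1.68, but that range holds only if LOX2 was tested in picln-1 with an error as small as in prmt5-5.

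The 2 storage protein genes were also set against each other, a contrast added after their values were seen. In picln-1 the change of VSP1 minus that of VSP2 was -0.05 (approximate 95% interval -0.61 to 0.50, with errors taken as independent). In prmt5-5 it was -0.95 (-1.53 to -0.37), so VSP1 fell 1.93-fold further than VSP2. VSP1 also fell further than LOX2 in prmt5-5, by a difference of -1.03 (-1.57 to -0.49), while VSP2 minus LOX2 was -0.08 (-0.57 to 0.41). Reads that fit both VSP1 and VSP2 would draw their changes together if counted for both genes or divided between them. How such reads were counted, and their number, is unknown.

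**Figure D3:**
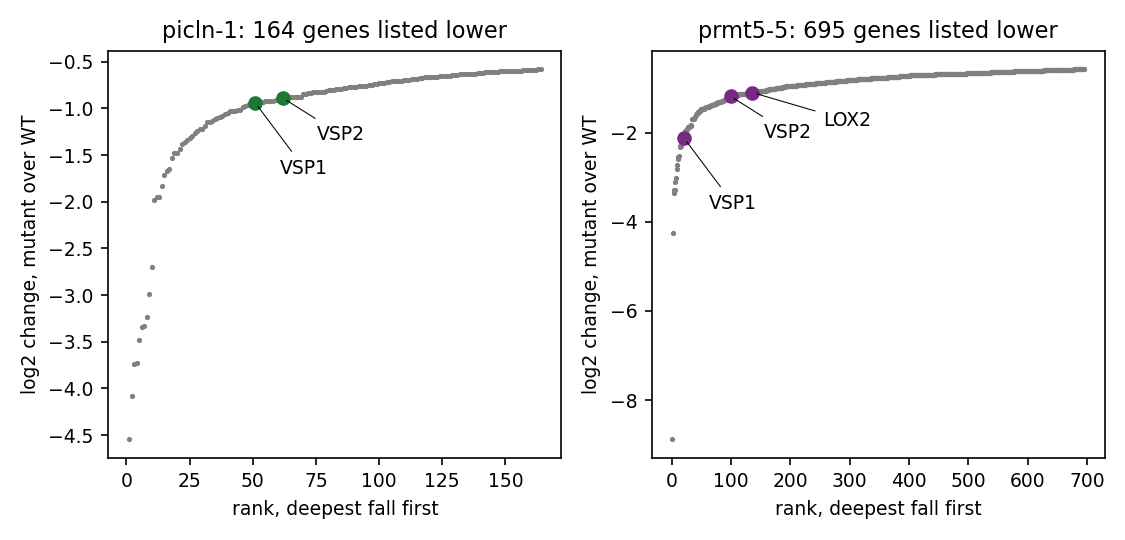
All genes listed as lower in each mutant, ordered from the deepest fall (horizontal axis, rank) with their log2 change (vertical axis); coloured points mark VSP1, VSP2 and LOX2. In picln-1 VSP1 and VSP2 stand at ranks 51 and 62, and in prmt5-5 VSP1 stands apart at rank 21 from VSP2 at 99 and LOX2 at 136.

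Other jasmonate genes were read from 5 lists of 82 loci in all, 79 of them besides VSP1, VSP2 and LOX2. In prmt5-5, 7 of the 79 were listed, all lower (8.86%; 4.15% of genes tested were lower and 4.99% higher). In picln-1, 3 of the 79 were listed, all higher (3.8%; 0.698% of genes tested were higher). How many of the 79 were tested is unknown, and the tables hold no p for a gene that is not listed.

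Of 19 synthesis genes, LOX2 was the only one listed in prmt5-5 (5.26%, where 4.15% of genes tested were lower). LOX2 was chosen with the results known, so that share is a description, and no other synthesis gene was listed there. In picln-1, 2 were listed, both higher (10.5%, where 0.698% of genes tested were higher). The cyclase genes AOC1 and AOC2, which act a step after the lipoxygenase and AOS, rose in picln-1 by 0.81 (adjusted p = 2.13e-06) and 0.71 (adjusted p = 3.25e-07) on the log2 scale in the authors' deposited table, or 1.75-fold and 1.64-fold. AOC1 and AOC2 thus moved in the opposite direction to VSP1 and VSP2 in picln-1. No 50-base window of the AOC1 transcript occurs unchanged in that of AOC2, and 17.4% do so with up to 2 mismatches. LOX3, LOX4, LOX6, AOS and OPR3 were listed in neither mutant.

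Of 25 perception and regulatory genes, the repressor genes JAZ3 and JAZ9 were listed in prmt5-5 (8%, where 4.15% of genes tested were lower). Their log2 changes in the authors' deposited table were -0.60 (adjusted p = 3.39e-06) and -0.60 (adjusted p = 0.00211). COI1, the receptor gene, and the transcription factor genes MYC2, MYC3 and MYC4 were listed in neither mutant. Of 10 hormone turnover genes, 1 was listed in prmt5-5, as lower (10%, where 4.15% of genes tested were lower). It was AT5G05600, annotated in RefSeq as an oxygenase family gene, at -0.59 (adjusted p = 9.56e-05) in the authors' deposited table. No gene of these 2 lists was listed in picln-1.

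Among 18 genes of the MYC branch, 4 were lower in prmt5-5 (22.2%, where 4.15% of genes tested were lower). VSP1 and VSP2, chosen with the results known, are among these. The others were CORI3 at -0.79 and the arginase gene ARGAH2 at -0.60 in the authors' deposited table (adjusted p = 2.13e-12 and 0.000466). CORI3 encodes a cystine lyase induced by coronatine and jasmonate. In picln-1 the myrosinase-binding protein gene MBP1 rose by 1.05 (2.07-fold, adjusted p = 3.91e-08 in the authors' deposited table) while VSP1 and VSP2 fell. By locus number MBP1 (AT1G52040) lies in a part of chromosome 1 with AT1G53480 (-4.54), the deepest fall of picln-1, and AT1G53490 (-3.73). Neither of these was listed as lower in prmt5-5. Whether the picln-1 line differs from WT in this part of the chromosome was not tested. MBP1 shares 1.94% of its 50-base windows unchanged with its relative MBP2 and 17.9% with up to 2 mismatches. Of 10 genes of the ERF branch, 2 were listed in prmt5-5, both lower (20%, where 4.15% of genes tested were lower). The basic chitinase gene CHIB was at -1.14 (adjusted p = 8.16e-12) and PR4, another pathogenesis-related gene, at -0.68 (adjusted p = 5.04e-07) in prmt5-5 in the authors' deposited table. The defensin gene PDF1.2a and the regulators ERF1 and ORA59 were listed in neither mutant. CHIB at -1.14 and LOX2 at -1.10 were close in size in prmt5-5 in the authors' deposited table.

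**Figure D4:**
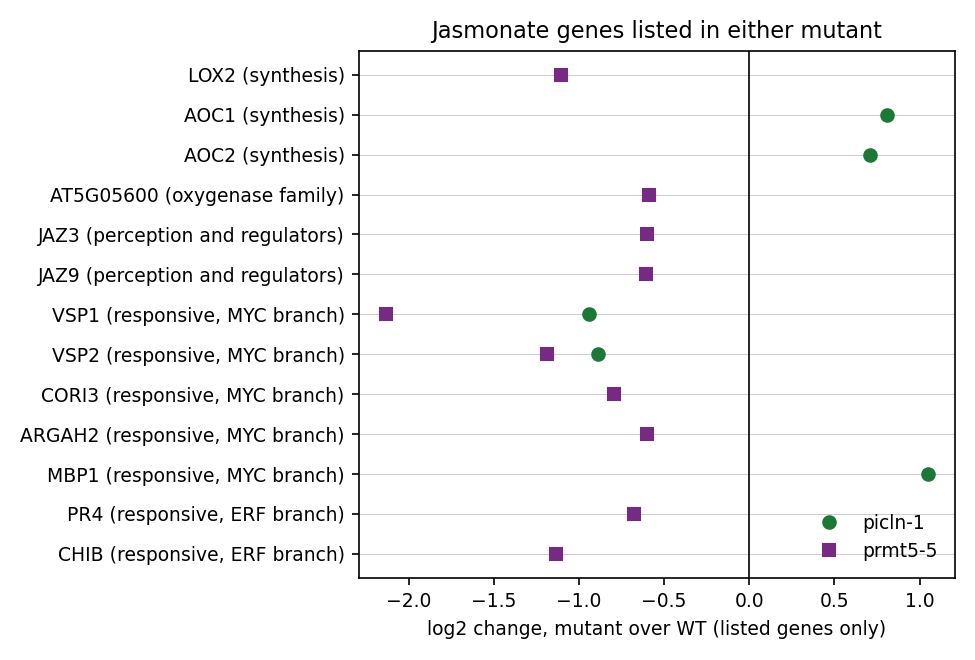
Log2 change (horizontal axis) of every gene of the 5 jasmonate lists that is listed in picln-1 (green circles) or prmt5-5 (purple squares); a missing point means not listed. All 10 points of prmt5-5 lie below 0, and in picln-1 AOC1, AOC2 and MBP1 lie above 0 with VSP1 and VSP2 below.

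A list drawn from RefSeq notes that name jasmonate, added after the data were seen, holds 70 loci, among them VSP1 but not VSP2 or LOX2, whose notes only count their processes. Besides VSP1, it had 0 lower and 3 higher in picln-1, where 0.996% of genes tested were lower and 0.698% higher. In prmt5-5 it had 6 lower and 0 higher, where 4.15% of genes tested were lower and 4.99% higher. Several of these listed genes are in the lists above. New among them were ESP, which directs glucosinolate breakdown to nitriles and rose by 1.63 in picln-1 (adjusted p = 4.40e-90), the vitamin C synthesis gene VTC2 at -0.82 and the squalene epoxidase gene SQE3 at -0.71 in prmt5-5, all in the authors' deposited table. By locus number ESP (AT1G54040) lies in the same part of chromosome 1 as MBP1, AT1G53480 and AT1G53490. Of 66 loci whose notes name wounding, VSP1 alone was listed in picln-1 (1.52%; 0.996% of genes tested were lower and 0.698% higher). In prmt5-5, 9 were listed, VSP1 among them, 6 lower and 3 higher (13.6%; 4.15% of genes tested were lower and 4.99% higher). The lower ones included HPL1, the hydroperoxide lyase gene that competes with AOS for the same lipid hydroperoxides, at -0.81 (adjusted p = 2.55e-12 in the authors' deposited table), and the phytosulfokine precursor gene PSK4 at -0.99 (adjusted p = 5.72e-07 in the authors' deposited table).

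Listed relatives of the 3 genes differed in direction. RefSeq notes name the class B acid phosphatase domain for 10 loci, VSP1 and VSP2 included. Of the 8 others, 3 were listed in prmt5-5, 1 lower and 2 higher (37.5%; 4.15% of genes tested were lower and 4.99% higher). In picln-1, 1 of the 8 was listed, as higher (12.5%, where 0.698% of genes tested were higher). The authors' deposited table lists AT4G29270 as lower in prmt5-5 (log2 change -0.86, adjusted p = 4.53e-12) and AT2G38600 as higher there (0.85, adjusted p = 0.00188). AT2G39920 was higher in both mutants (0.69 in picln-1 and 0.64 in prmt5-5 in the authors' deposited table), opposite in direction to VSP1 and VSP2. The notes name the lipoxygenase domain for 5 loci. Of the 2 lipoxygenase genes outside the synthesis list, 1 was listed in prmt5-5, as lower (50%, where 4.15% of genes tested were lower). It was LOX1, at -0.60 (adjusted p = 5.28e-08 in the authors' deposited table), and LOX5 was not listed.

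Glucosinolates are defence compounds whose synthesis jasmonate induces. Of 13 genes of this pathway, 2 were listed in prmt5-5, both higher (15.4%; 4.99% of genes tested were higher), and the other 11 have no value there. The 2 listed genes encode the methionine-chain enzymes CYP79F1 at 0.70 (adjusted p = 2.50e-21) and CYP79F2 at 1.21 (adjusted p = 4.11e-26) in the authors' deposited table. CYP79F1 and CYP79F2 are close copies, with 2.0% of the 50-base windows of CYP79F1 unchanged in CYP79F2 and 18.1% within 2 mismatches. In picln-1 the myrosinase gene TGG2 alone was listed (7.69%, where 0.996% of genes tested were lower). It was at -0.80 in the authors' deposited table (adjusted p = 2.25e-11).

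Genes beside VSP1 and VSP2 were looked at because the pair lies together. AT5G24760, a zinc-binding dehydrogenase family gene 2857 bases from VSP2, was at -0.71 in prmt5-5 in the authors' deposited table and not listed in picln-1. AT5G24750, a glycosyltransferase family gene 5788 bases from VSP2, was listed in the authors' deposited table at -0.59 for picln-1 and had no row for prmt5-5. The pseudogene AT5G24775 and the genes AT5G24790 and BZIP9 beyond VSP1 were listed in neither mutant, nor were the nearest annotated genes of LOX2.

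Loci closest to each gene in pattern were found by distance on the log2 scale over the 2 changes, so likeness rests on 2 values. Among 122 loci listed in both gene tables, the 3 nearest to VSP1 were the copper amine oxidase family gene AT1G31690 (distance 0.29), AT2G27402 (0.41) and ACD6 (0.41), and no locus came closer. The 3 nearest to VSP2 were the peroxidase family gene AT2G41480, AT2G16367 and the TRAF-like gene AT3G28220, all at a distance of 0.07. LOX2 has a single value, and its nearest loci of those listed in prmt5-5 alone were AT4G12545, AT2G22200 and AT3G27884, with log2 changes of -1.10 each in the authors' deposited table.

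The chaperone pICln acts in spliceosome assembly, and PRMT5 methylates spliceosomal proteins among others. For this reason the gene parts of VSP1, VSP2 and LOX2 were looked up in the bin tables. None of the 3 genes had a listed bin in either mutant, where 0.479% of bins tested were listed in picln-1 and 2.88% in prmt5-5. The 3 genes have 12 distinct annotated introns, 7 of them in LOX2, where alternative forms of the same intron count separately. The tables hold no retained share and no p for a bin that is not listed, so retention in these introns below the limits, or too few reads to test it, is not separated from none. A 5' splice site is the start of an intron that the U1 snRNP pairs with. Some of the introns begin with a site far from the usual letters. A selection of sites, both near to and far from the usual letters, is shown. Each has 3 exon bases, the intron's first 2 bases in capitals and 4 more intron bases.
LOX2 intron 1: agcGTgagt
LOX2 intron 2: acaGTactt
LOX2 intron 4: gagGTaagt
VSP1 intron 1: tggGTatat
VSP2 intron 1: cggGTatat
Each site was given a score in bits from the base frequencies at the same positions of the 136307 annotated introns. By this score LOX2 intron 1 had 2.21 bits (3.79th percentile), intron 2 had 3.20 (6.93rd percentile) and intron 4 had 10.9 (98.9th percentile), against a median of 7.0 over all introns. VSP1 intron 1 had 5.38 bits (24.3rd percentile) and VSP2 intron 1 had 6.60 (42.5th percentile). In LOX2, 3 of the 7 introns, among them both annotated forms of intron 1, scored under the 10th percentile, and none of the 7 had a listed bin. The lowest score, 1.35 bits (percentile 2.41), was that of the other form of LOX2 intron 1, whose site is not shown.

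Elsewhere in the 5 jasmonate lists, introns were called in prmt5-5 in 4 of the 79 genes (5.06%) and in picln-1 in none. The list of 70 loci whose RefSeq notes name jasmonate had 8 loci with a listed bin in prmt5-5 (11.4%). For picln-1 it had 2 (2.86%), TRFL7 and MYB47, and both of these also had a listed bin in prmt5-5. Over the whole tables, 2601 genes had a listed bin in prmt5-5 and 470 in picln-1. That is 15.5% and 2.85% of the number of genes tested for expression. The shares in prmt5-5 were thus below that of the table at large. For picln-1, the share of the RefSeq list was about equal to it. In the authors' deposited table, 6.17% of junction reads retained intron 7 of 13 of MED25, a Mediator subunit that works with MYC2, in prmt5-5 against 0% in WT (adjusted p = 0.00297). Intron 3 of 4 of ARGAH2, which was also lower in expression, went from 5.81% in WT to 14.3% in prmt5-5 (adjusted p = 0.0329 in the authors' deposited table), with 11.7% in picln-1. The dehydroascorbate reductase gene DHAR1 went from 1.39% to 18.8% in intron 1 (the authors' deposited table, adjusted p = 1.08e-60). FAD8, a desaturase gene that supplies linolenic acid upstream of LOX2, went from 1.81% to 10.7% in intron 7 and from 2.1% to 9.45% in intron 2 (adjusted p = 3.82e-08 and 5.64e-06 in the authors' deposited table). Of the glucosinolate list, introns of the regulators MYB28 (4.59% to 23.8%) and MYB34 (3.89% to 9.85%) were also retained more in prmt5-5 in the authors' deposited table. All these introns lie in the coding sequence of the matched transcript, and shares are pooled over the libraries of a genotype.

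The promoters of VSP1, VSP2 and LOX2 are shown because the 3 genes fell together in prmt5-5. Each holds the 250 bases before the annotated gene start, 5′ to 3′ on the gene's strand, read from RefSeq TAIR10.1 at chr5:8509202-8509451 (minus strand), chr5:8502225-8502474 (minus strand) and chr3:16524995-16525244 (plus strand). Capitals mark matches on either strand to CACGTG (the G-box that MYC factors bind), CACATG or AACGTG.
VSP1 promoter: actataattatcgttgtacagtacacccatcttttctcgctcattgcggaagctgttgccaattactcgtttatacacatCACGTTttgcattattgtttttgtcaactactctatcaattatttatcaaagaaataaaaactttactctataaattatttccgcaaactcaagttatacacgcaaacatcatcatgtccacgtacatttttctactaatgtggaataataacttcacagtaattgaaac
VSP2 promoter: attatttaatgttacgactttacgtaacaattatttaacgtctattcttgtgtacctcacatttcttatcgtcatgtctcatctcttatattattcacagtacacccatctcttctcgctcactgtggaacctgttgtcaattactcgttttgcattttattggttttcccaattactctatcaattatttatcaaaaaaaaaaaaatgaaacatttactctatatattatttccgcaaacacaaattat
LOX2 promoter: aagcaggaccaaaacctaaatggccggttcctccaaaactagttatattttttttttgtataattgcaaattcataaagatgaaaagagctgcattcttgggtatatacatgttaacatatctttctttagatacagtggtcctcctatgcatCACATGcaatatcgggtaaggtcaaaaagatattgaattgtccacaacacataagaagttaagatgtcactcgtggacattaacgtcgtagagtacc
VSP1 has 1 match, CACGTT, which reads as AACGTG on the opposite strand, starting 170 bases before the gene start, and LOX2 has 1, CACATG, starting 97 bases before it. VSP2 has none in this window. In windows of the same length, 6.49% of 27443 protein-coding genes hold CACGTG, 11.1% hold CACATG, 7.54% hold AACGTG and 22.8% hold any of them. In an alignment of the VSP1 and VSP2 promoters, 163 of the 250 bases of each were aligned and 87 were not. The aligned bases were identical at 147 positions (90.2%).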

How the data were processed

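Per the submitters' processing notes, reads were aligned with TopHat to TAIR10; the sources used here do not give the program that counted and tested them. The authors deposited log2 fold changes (mutant over WT, base 2 inferred from a smallest listed change of 1.50-fold or 1.49-fold) and p-values with adjusted p-values, per the file headers, for genes and bins. The deposited bin fraction is a pooled share of junction reads per genotype, printed here as a percent. The planned refits needed counts per library and were not run.

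The number of features tested was worked out from each adjusted p over its raw p, as the number for which most ranks were whole (87.8% of listed genes in picln-1 and 94.8% in prmt5-5, within a relative tolerance of 1e-06). This computation and that of the intervals were run on simulated data. The simulation used normal errors and a correlation of 0.5, as the intervals do, so it cannot check those assumptions. Introns were matched to RefSeq TAIR10.1, whose introns had the same start and end as 99.8% and 99.9% of listed intron bins. Sequences were read from that genome; coding sequences were aligned with Biopython 1.88. Depth is unknown, so precision rests on the authors' p-values.

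The genes and lists were chosen with earlier results of these data known. Named genes are the 3 genes, every gene of the hand-made lists that is listed in a gene table, the 3 nearest in pattern, the neighbours and the mutated genes. Genes named from RefSeq notes, AT1G53480 and AT1G53490, and genes named as not listed, were chosen after their values were seen. Of the 82 jasmonate loci, 7 have no symbol in RefSeq. Python 3.11.15, numpy 2.4.6, pandas 2.3.3, scipy 1.17.1 and matplotlib 3.10.9 were used.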

Additional observations from a re-analysis of the deposited data

How the results depend on the processing

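Of 25 alternative values, 19 stayed the same: an interval kept its reading as to 0, or a count or percent stayed near its main value. Another 5 counts or percents moved, and 1 interval came to exclude 0. A count of 0 cannot change under a stricter limit, so such values test nothing. With no correlation between the mutants' changes, the difference of VSP1 (-1.19) kept an interval below 0 (-1.79 to -0.58) and that of VSP2 (-0.30) an interval that spans 0 (-0.82 to 0.23). With a t distribution of 6 degrees of freedom in place of the normal to turn p into an error, the VSP2 difference of -0.30 had an interval below 0 (-0.41 to -0.18). Over 122 genes listed in both tables, the median ratio of errors, prmt5-5 over picln-1, was 0.998 with the normal and 0.687 with the t quantile. The groups were of equal size, so the t setting, with its unequal errors, is the less trusted one. With a size of at least 1 on the log2 scale, 0 of the 3 genes were listed in picln-1, 1 other jasmonate gene was higher there and 1 was lower in prmt5-5; the stricter limit itself sets this. With all annotated protein-coding genes as denominator, 0.598% were listed lower in picln-1 and 2.53% in prmt5-5. No paired analysis was possible because the tables hold no values per library, so neither the replicate block nor leaving out a replicate was run. Calls for genes that are not listed cannot be read at any setting.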
